A study of Mus musculus with 62 samples.

Results

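Of 51588 merged H3K27ac regions in mouse skeletal muscle, 3181 (6.17%) carried a peak in both extensor digitorum longus (EDL) and quadriceps (Quad) and none in soleus (Sol) or diaphragm (Dia). These regions were chosen by H3K27ac itself: the peak lists of the 4 muscles were merged wherever they touched, and a merged region was kept if it overlapped, by at least 1 bp, an EDL peak and a Quad peak but no Sol or Dia peak. Their presence in EDL and Quad and absence from Sol and Dia is therefore a description of the choice and was not tested. A region without a peak can still carry some acetylation, because a peak was called only at 2-fold enrichment over input, and the lists give no level in a muscle that lacks a peak.

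The study performed ChIP-seq for H3K27ac and H3K4me2 in EDL, Quad, Sol and Dia of sedentary wild-type mice (C57BL/6 in the labels, C57BL/6J in the methods), with 2 libraries per mark and muscle. The same marks were profiled, again in duplicate, in Quad of 4 further groups. Sed and Ex were wild-type mice kept without or with a running wheel for 4 weeks from 8 weeks of age. The mTg mice, labelled PGC1a Tg(+), carried a Pgc1a transgene driven by the muscle creatine kinase promoter, so that they expressed it constitutively in muscle, and Wt were their wild-type littermates, both sedentary. All mice were male. Each Quad library came from 1 muscle of 1 animal, whereas EDL, Sol and Dia libraries were pooled from 3 animals, so the spread between EDL replicates is a spread between pools. Ex mice were taken within hours of their last run, so in the libraries used here a lasting and a recent effect of running cannot be told apart. The paper also reports mice taken days after wheels were removed. Their acetylation at its exercise-modified regions was still lower than in controls, by a smaller amount.

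H3K27ac marks active enhancers and promoters and is removed when a regulatory element falls silent, whereas H3K4me2 marks enhancers and promoters more broadly and often precedes acetylation. EDL and Quad are fast, largely glycolytic muscles rich in type IIb fibers. Sol is a slow oxidative muscle, and Dia is a mixed oxidative muscle that contracts without pause. Endurance training and PGC1α, a coactivator of mitochondrial genes, shift fast muscle toward an oxidative state. In whole muscle, fewer fibers that carry a mark and less of the mark in each fiber cannot be told apart.

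The highest H3K27ac peak of each muscle marker, Acta1, Ckm, Des, Ttn, Neb and Mb, stood at percentile 89.5 to 99.7 of the level per kb in all 4 muscles. H3K27ac libraries held 11.7 to 24.2 M tags and H3K4me2 libraries 6.41 to 22.7 M, the lowest being an mTg replicate. The Wt and mTg inputs were the shallowest at 7.72 and 8.83 M tags. Levels per kb of replicates correlated across the peaks of a list with Spearman's rho of 0.875 to 0.976, as a description, since peaks share a library.

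The sequences below show 200 bases at the highest ATAC peak inside 5 of the regions on which the results turn, read on the plus strand of mm10 from the RefSeq copy of that build. They were chosen to show members of high level (Bpgm, Cdh4, Dtnb, Abcc8) and a fast-fiber gene (Pvalb). Capitals mark the letters of a searched motif: an E-box (CAGCTG), the nuclear receptor element NBRE (AAAGGTCA), MEF2, the sine oculis homeobox element MEF3 (TCAGGTT) or NFAT (TGGAAA), on either strand. In the Dtnb window a MEF3 and an NFAT match overlap and form 1 run of capitals.
Bpgm lies in intron 2 of its gene and holds an E-box and an NBRE.
Bpgm member, chr6:34495387-34495586: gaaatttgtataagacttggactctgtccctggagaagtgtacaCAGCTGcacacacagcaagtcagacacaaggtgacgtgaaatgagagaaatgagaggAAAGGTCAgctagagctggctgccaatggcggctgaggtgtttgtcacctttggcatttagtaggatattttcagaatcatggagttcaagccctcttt
Cdh4 lies in intron 2 of its gene and holds a MEF2 match.
Cdh4 member, chr2:179641047-179641246: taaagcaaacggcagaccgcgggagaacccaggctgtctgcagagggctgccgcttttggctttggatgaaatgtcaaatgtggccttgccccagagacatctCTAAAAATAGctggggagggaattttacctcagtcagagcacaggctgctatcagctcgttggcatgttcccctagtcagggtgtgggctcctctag
Dtnb lies in the coding part of the last exon of Asxl2.
Dtnb member, chr12:3501218-3501417: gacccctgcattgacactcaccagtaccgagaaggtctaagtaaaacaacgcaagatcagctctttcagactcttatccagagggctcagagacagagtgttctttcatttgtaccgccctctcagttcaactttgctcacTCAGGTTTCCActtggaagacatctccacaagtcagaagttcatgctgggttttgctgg
Abcc8 lies in the gene Ush1c and holds an NBRE on the minus strand.
Abcc8 member, chr7:46204338-46204537: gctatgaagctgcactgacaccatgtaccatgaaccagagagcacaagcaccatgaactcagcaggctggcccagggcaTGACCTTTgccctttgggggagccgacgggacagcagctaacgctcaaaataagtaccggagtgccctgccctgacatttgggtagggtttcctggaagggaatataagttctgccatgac
Pvalb lies between genes, upstream of Pvalb, and holds an E-box and an NFAT match on the minus strand.
Pvalb member, chr15:78211468-78211667: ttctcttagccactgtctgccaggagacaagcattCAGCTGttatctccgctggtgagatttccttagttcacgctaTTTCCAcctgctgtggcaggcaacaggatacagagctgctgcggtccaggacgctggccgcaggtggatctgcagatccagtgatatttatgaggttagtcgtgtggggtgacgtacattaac

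The EDL and Quad regions lay farther from gene starts than merged regions as a whole. By the authors' annotation, 94 (2.96%) were at promoters, 2001 (62.9%) inside genes and 1086 (34.1%) between genes, against 10.2%, 56.5% and 33.3% of all merged regions. The median distance to the nearest transcription start site was 26215 bp, against 18781 bp for all merged regions and 7287 bp for the 19318 regions acetylated in all 4 muscles. The 6819 regions found in Quad only lay farther still, at a median of 32381 bp, with 1.57% at promoters. Beyond 50 kb lay 31.5% of them, compared with 26.6% of all. Their median width was 1723 bp (quartiles 1306 and 2335 bp), close to the 1857 bp of all merged regions, narrower than the 3332 bp of regions shared by all 4 muscles and wider than the 775 bp of the Quad-only regions. On chromosome X lay 3.08% of them and 2.23% of all merged regions. Shares in the text carry Wilson 95% intervals, shown as bars in the plots, which cover counting over regions only. Regions share libraries and are not replicates, so no test was run across them.

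Assignment to the nearest start site often named a gene other than the one in which a region lay. Of 2085 members whose annotated transcript matched RefSeq, 624 (29.9%) lay inside another gene than the nearest one. The member nearest Abcc8, which encodes the sulfonylurea receptor of the ATP-sensitive potassium channel, lay in Ush1c (chr7:46201790-46206738, mm10). The one nearest Mtbp lay in Sntb1, the gene of a syntrophin of the dystrophin complex (chr15:55725637-55729368). The one nearest Mss51, a gene of fast muscle, lay in Ppp3cb, which encodes a catalytic subunit of the phosphatase calcineurin (chr14:20517972-20523632). Gene names in what follows are those of the nearest start site unless a host gene is given.

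At the edge of the rule, the median gap from a member to the nearest Sol or Dia peak was 8415 bp, 192 members (6.04%) lay within 1000 bp of one, and 13 within 100 bp. The closest, near Gm5086 (chr13:97559706-97561656), was 20 bp away and weak, at percentile 2.76 of the EDL list and 16.3 of the Quad list. On the other side of the edge, 23796 regions with EDL and Quad peaks were left out because they also held a Sol or Dia peak. Such peaks covered under 25% of the region in 206 of these (0.866%), as near Mir7212 (chr15:25962578-25969378), where they covered 7.37%.

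H3K27ac levels, which the rule used and which are given without a test, had moderate ranks, higher within the Quad list than within the EDL list. A level is the deposited log2 value per kb of peak, set as its percentile among all peaks of the same list, because each list was normalized alone. The members' median was at percentile 28.8 and 29.5 in the EDL replicates and at 40.9 and 38.2 in the Quad replicates. The Quad list was longer, at 40949 peaks against 35750, and its Quad-only regions had median percentiles of 14 and 15.3. The part of list length and content in these ranks was not tested. The 10 members with the highest levels lay nearest Bpgm, Cdh4, Dtnb, Abcc8, Usp54, Mtbp, Ube4a, Stim2, Tbc1d19 and Mss51. Bpgm, the mutase that makes 2,3-bisphosphoglycerate, led in Quad at percentile 96.5 (83.3 in EDL; chr6:34492505-34499366). Its log2 level per kb was 6.98 and 7.57 in the EDL libraries and 7.63 and 7.53 in the Quad libraries. Cdh4, which encodes R-cadherin, stood at percentile 84.5 in EDL and 89.3 in Quad (chr2:179638904-179643082). All 10 lay inside genes, and none was at a promoter. The widest member, at 9688 bp, lay in intron 2 of the immunoglobulin superfamily gene Igsf3 (chr3:101387181-101396869), at percentile 68.5 in EDL and 68.1 in Quad. The next widest lay nearest Tbc1d9, Atp8a1, 4921525O09Rik and Dkk3, and spanned 9244, 9205, 8506 and 8193 bp.

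H3K4me2, which the rule did not use, divided the muscles along the same line. An H3K4me2 peak overlapped 1703 members (53.5%) in EDL, where 55.8% of all merged regions had one, and 1781 (56%) in Quad, where the share of all was also 56%. In Sol only 701 members (22%) had one, against 48.6% of all, and in Dia 641 (20.2%), against 44.6%. Regions acetylated in Sol and Dia only showed the opposite order, with H3K4me2 at 29.9% (EDL), 28.9% (Quad), 43% (Sol) and 37.8% (Dia). Regions acetylated in all 4 muscles had 84.4%, 83.6%, 78.8% and 74.5%. Among members of 1 to 2 kb the shares in EDL, Quad, Sol and Dia were 50.5%, 55.1%, 21.8% and 19.9%, against 49.4%, 49.2%, 42.5% and 38.9% of all merged regions of that width. At 2 to 4 kb they were 55.4%, 55.1%, 18% and 16%, against 66.1%, 65.8%, 57.5% and 52.7%. The 320 members under 1 kb also had less H3K4me2 in Sol and Dia than in EDL and Quad, at 54.4%, 55.3%, 34.7% and 35.3%, but all of these exceeded the 28.6%, 31.2%, 23.8% and 21% of all merged regions that narrow.

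**Figure D1:**
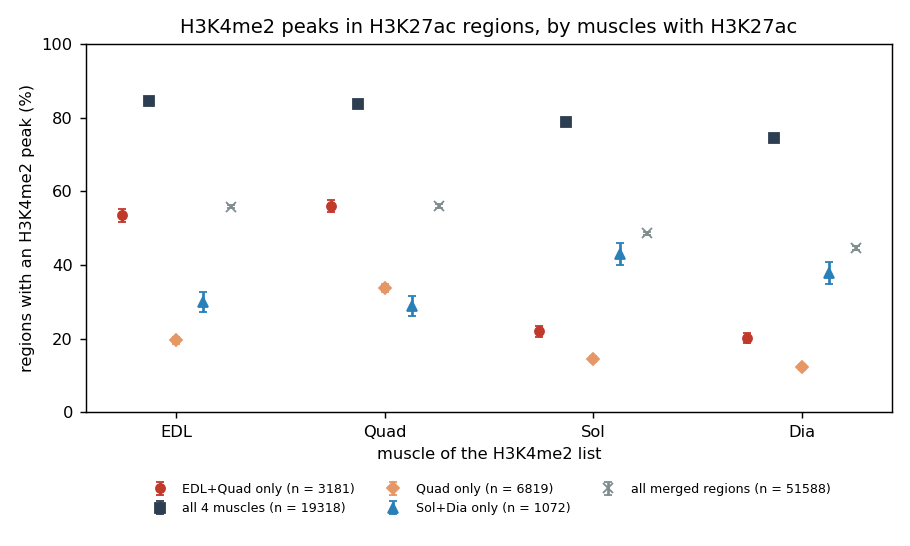
Share of H3K27ac regions that overlap an H3K4me2 peak (vertical axis, percent) in the list of each muscle (horizontal axis), for the EDL and Quad regions, for 3 other sets and for all merged regions; bars are Wilson 95% intervals. The EDL and Quad regions fall from 53.5% and 56% in EDL and Quad to 22% and 20.2% in Sol and Dia, while the Sol and Dia regions are highest in Sol.

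Taken region by region, 1292 members (40.6%) had H3K4me2 in EDL or Quad and in neither Sol nor Dia, against 14.6% of all merged regions. Of these, 615 (19.3%) had it in both EDL and Quad, against 4.81% of all. The reverse pattern, H3K4me2 in Sol or Dia but in neither EDL nor Quad, occurred at 28 members (0.88%), against 4.44% of all. At 453 members (14.2%) H3K4me2 was called in all 4 muscles although H3K27ac was called in EDL and Quad alone. No H3K4me2 peak was called in any muscle at 1019 members (32%), close to the 30.9% of all merged regions.

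Where H3K4me2 was called in all 4 muscles, its rank within the list was lower in Sol and Dia. The median percentile at those 453 members was 69.9 and 69.1 in the EDL replicates, 68.9 and 68.6 in Quad, 59.4 and 60.9 in Sol and 55.8 and 55.5 in Dia. All merged regions with H3K4me2 in all 4 muscles had medians of 77 to 77.4 in EDL and Quad, 72.4 in both Sol replicates and 70 and 70.1 in Dia. The EDL and Quad values did not overlap those of Sol and Dia. The EDL and Quad lists were also longer, at 42501 and 43525 peaks, than those of Sol and Dia, at 35696 and 33138, and the part of list length in these ranks was not tested. Such medians are a description over regions, with 2 libraries per muscle, and 2 against 2 libraries cannot give an exact permutation p below 0.333.

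**Figure D2:**
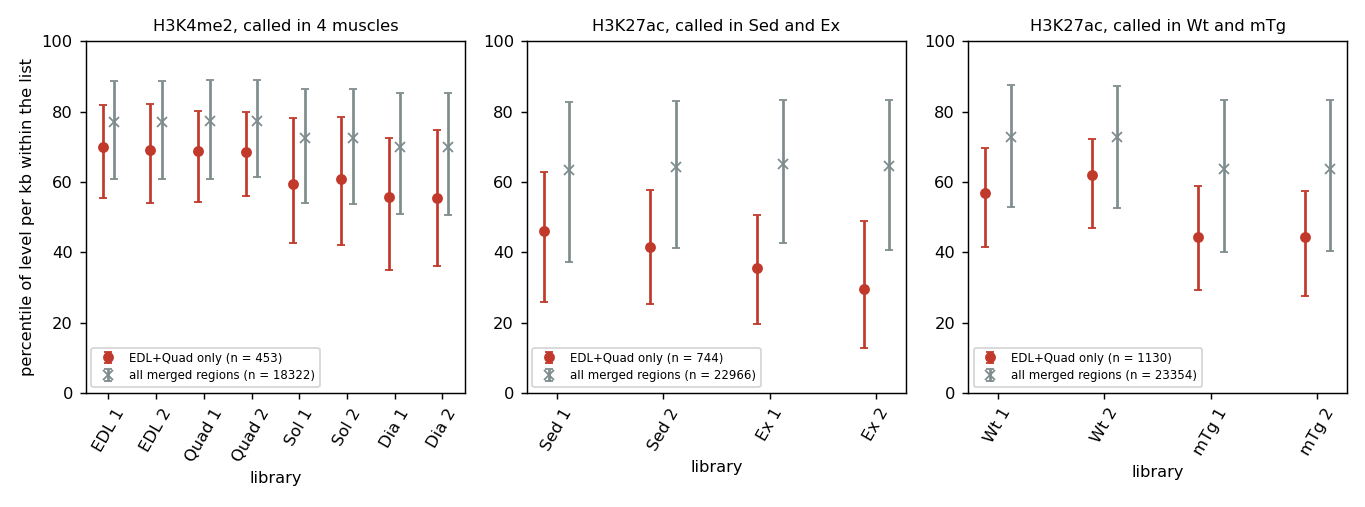
Median percentile of the level per kb within its list (vertical axis; bars are quartiles) in each library (horizontal axis) for the EDL and Quad regions and for all merged regions, for H3K4me2 called in all 4 muscles (left), H3K27ac called in both Sed and Ex (middle) and H3K27ac called in both Wt and mTg (right). The EDL and Quad regions run below all merged regions throughout, and lower in Ex than in Sed, from 46 and 41.4 to 35.5 and 29.6.

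The 94 promoter members differed from the rest in H3K4me2. They carried it at 93.6% (EDL), 94.7% (Quad), 84% (Sol) and 81.9% (Dia), against 95.2% to 96.1% of all promoter regions. Among the promoter members with the highest H3K27ac, picked after their values were seen, were those of Prima1, Spag5, Ddx19b and Eif3l. Eif3l encodes a translation initiation subunit and Prima1 the membrane anchor of acetylcholinesterase. These 4 carried H3K4me2 in all 4 muscles, and none overlapped a region that differed in Ex or mTg. Among the 2001 members inside genes, H3K4me2 was present at 55.4%, 57.6%, 21.3% and 19.1% in EDL, Quad, Sol and Dia.

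Few members lay near genes of the fast contractile apparatus, and none near genes of the slow apparatus. Of 75 merged regions near the fast sarcomere and calcium-handling genes listed, 7 (9.33%) were members, against 6.17% of all merged regions, near Pvalb, Tpm1, Casq1 and Myh4. Near the slow sarcomere genes, 0 of 51 merged regions were members. Both lists hold too few members to set their shares apart from that background. The highest member near a fast gene lay upstream of the gene of parvalbumin, the cytosolic calcium buffer of fast fibers, at -4991 bp from its start site (Pvalb, chr15:78209143-78213542). Its log2 level per kb was 7.05 and 7.13 in EDL and 6.68 and 6.30 in Quad, with H3K4me2 in both and in neither Sol nor Dia. A member in intron 11 of Myh4, the type IIb myosin heavy chain, stood at percentile 37.4 in EDL and 55.4 in Quad (chr11:67242892-67244032). Reads in Myh4 are uncertain, because myosin heavy chain genes are near-identical in places and uniquely mapping reads alone were kept. The Casq1 member, in intron 7 of the fast calsequestrin gene, had H3K4me2 in EDL and Quad only.

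Of 125 merged regions near genes of glycogen and glycolysis, 13 (10.4%) were members, against 6.17% of all merged regions. Of these 13, 6 overlapped a region lower in Ex, as did 14.2% of all members. Among the highest was a region at -31092 bp from the start of Ppp1r3c, which targets protein phosphatase 1 to glycogen (chr19:36765532-36769860), at percentile 74 in EDL and 80.3 in Quad. Others lay nearest Pfkm, the muscle phosphofructokinase, though inside Senp1, and nearest Slc16a3, the lactate exporter MCT4, though inside Csnk1d. By contrast 2 of 142 regions (1.41%) near genes of oxidative metabolism were members. They were nearest Ppard and Fabp3, but inside Def6 and Zcchc17, and neither differed in Ex or mTg. Both lists hold few members, and their shares were not tested against the background.

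Transcription factors tied to fiber type held the largest number. Of 327 merged regions near the listed factors, 42 (12.8%) were members, against 6.17% of all merged regions. The 42 lay near 18 genes. Eya4, a coactivator of sine oculis homeobox proteins, and Nfatc1, a calcineurin-regulated factor of slow fibers, had 5 each, Maf and Nfatc2 had 4 each, and Sox6, a repressor of slow-fiber genes, and Tead1 had 3 each. The member in intron 6 of Tbx15, a factor of glycolytic fibers, spanned 4607 bp (chr3:99336688-99341295) and stood at percentile 63.1 in EDL and 79.1 in Quad. The Maf member of highest level, 64198 bp from the start of that gene of a large Maf factor, spanned 7044 bp (chr8:115639127-115646171). Of the myogenic factors, 1 of 38 regions was a member, at -46245 bp from the start of Mstn, the gene of the growth inhibitor myostatin. Genes of limb and axial position had 8 of 122 (6.56%), near Meox2, Pitx1, Meox1, Irx3 and Irx5, and all 8 carried H3K4me2 in EDL or Quad.

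Members near markers of other cell types, read against the 6.17% of all merged regions, numbered 3 of 81 regions for endothelial genes, 3 of 58 for stromal genes, 2 of 32 for smooth muscle, 1 of 15 for macrophages, 1 of 10 for tendon, and 0 of 5 for adipocyte and 0 of 25 for Schwann genes. The general muscle markers had 1 of 42. These lists hold too few members to set their shares apart from that background. The part of other cell types in the set as a whole was not tested.

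Some genes had several members. Members lay near 2451 genes, of which 505 had at least 2, 151 at least 3 and 15 at least 5. Stim2, the endoplasmic reticulum calcium sensor of store-operated entry, had the most, 9 of its 19 merged regions. The genes with 6 were 2010111I01Rik, H2afy3, Kcnma1, Ppp3ca and Rora. Ppp3ca, a catalytic subunit of calcineurin, had 6 of 16, Kcnma1, a calcium-activated potassium channel, 6 of 31, and Rora, an orphan nuclear receptor, 6 of 40. Among those with 5 were Dlg1, Eya4, Nfatc1, Bcor, Chd7, Tbl1xr1, Tns3 and A730004F24Rik. Still, 2044 members (64.3%) had no other member within 50 kb. All merged regions lay near 15395 genes, and a gene with more merged regions can hold more members. Gathering beyond that was not tested.

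In independent Quad libraries most members were called again, and exercised and transgenic Quad called fewer. H3K27ac peaks overlapped 1952 members (61.4%) in Sed, where 57.9% of all merged regions had one, and 2319 (72.9%) in Wt, where 67.5% had one. In Sed or Wt together 83.6% were called, against 75.2% of all. By the rule every member held a Quad peak, whereas 37382 of the 51588 merged regions did. A share in Sed or Wt above that of all is therefore partly set by the choice of members. In Ex 1073 members (33.7%) were called, against 56.1% of all, and in mTg 1402 (44.1%), against 52.9%. With peaks limited to an adjusted p under 0.001 the Sed and Wt shares lay below those of all merged regions, at 23.7% against 36.7% and 25.6% against 34.1%, and Ex and mTg further below, at 7.36% against 33.4% and 8.74% against 26.8%. Sed and Ex lists were of similar length, 34031 and 34572 peaks, whereas the Wt list was longer than the mTg list, 49010 against 36169. Of the 1952 members called in Sed, 744 (38.1%) were also called in Ex, whereas 76.8% of all merged regions, 91.7% of those shared by 4 muscles and 63% of the Sol and Dia regions were. Quad-only regions were near the members, at 38.8%. Of the 2319 called in Wt, 1130 (48.7%) were called in mTg, against 67.1% of all and 25% of the Quad-only regions.

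The share in Ex was lower than that of all merged regions in all 4 bands of width examined, and that in mTg in the 3 bands above 1 kb. Of members of 1 to 2 kb called in Sed, 33.7% were called in Ex, against 65.8% of all merged regions of that width, and of members of 2 to 4 kb 40.2% against 79.4%. The corresponding shares for Wt and mTg were 40.8% against 51.7% and 57.9% against 74.6%. Above 4 kb the shares were 61.3% against 93% in Ex and 78.5% against 92.7% in mTg. Below 1 kb the Ex share was 33.6% against 41.8%, whereas the mTg share was above that of all merged regions, at 34.2% (63 of 184) against 26.7%. Quad-only regions of 1 to 2 and 2 to 4 kb had Ex shares of 40.7% and 45.3%, closer to the members than all merged regions were. Their mTg shares, 27.9% and 44%, lay below those of the members. A set of 484 members (15.2%) was called in Sed and Wt but in neither Ex nor mTg, a pattern found at 4.31% of all merged regions. At 378 members (11.9%) H3K27ac was called in all 4 condition lists, against 33.3% of all.

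Members called in both groups of a pair also ranked lower in Ex and mTg. Over the 744 called in Sed and Ex, the median percentile was 46 and 41.4 in the Sed libraries and 35.5 and 29.6 in the Ex libraries, while all merged regions called in both had 63.3 and 64.3 in Sed and 65 and 64.6 in Ex. Over the 1130 called in Wt and mTg, it was 56.9 and 61.9 in Wt and 44.3 in both mTg libraries, against 72.8 and 72.7 in Wt and 63.8 in both mTg libraries for all. The replicates of a group did not overlap those of its control. A percentile depends on which peaks are in a list, the mTg list was shorter than the Wt list, and the rank of all merged regions was lower in mTg as well. The part of list length and depth in these ranks was not tested.

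**Figure D3:**
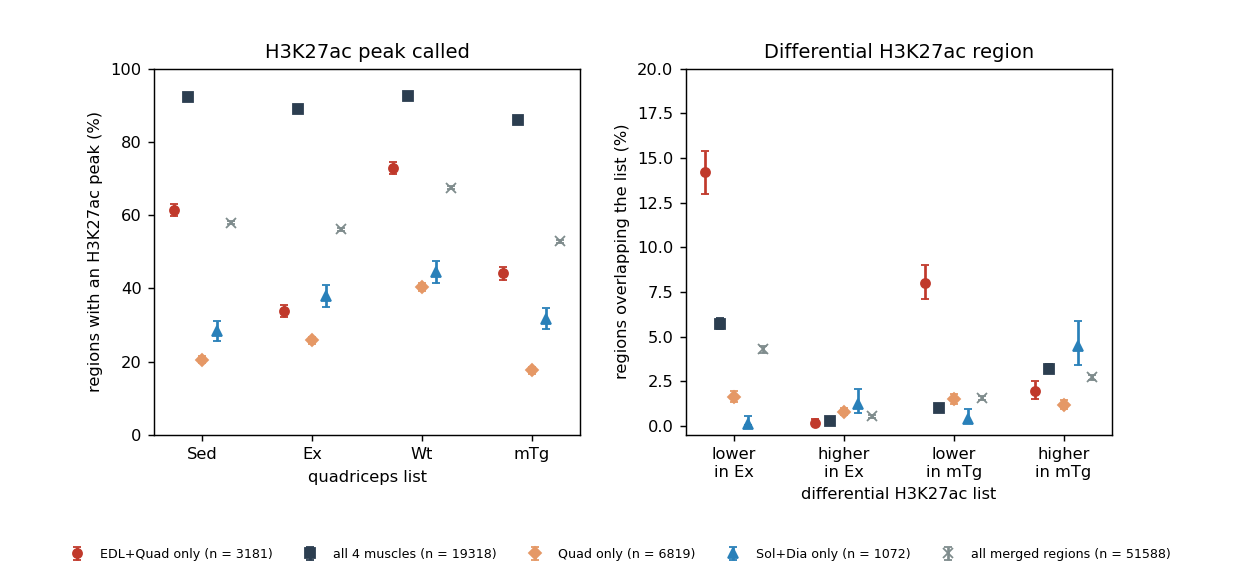
Left, share of regions with an H3K27ac peak (vertical axis, percent) in the Quad lists of Sed, Ex, Wt and mTg mice (horizontal axis); right, share overlapping the authors' lists of regions lower or higher in Ex or mTg, on an axis that ends at 20%. Points are the EDL and Quad regions, 3 other sets and all merged regions, and bars are Wilson 95% intervals; the EDL and Quad regions are highest among the sets for regions lower in Ex (14.2%) and lower in mTg (7.98%).

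Regions that the authors called lower in acetylation after exercise or with the transgene overlapped the members more often than merged regions as a whole. Regions called higher overlapped them less often. Merged regions as a whole include some without a Quad peak, whereas the regions shared by 4 muscles and the Quad-only regions all have one. Regions lower in Ex overlapped 451 members (14.2%), against 4.28% of all merged regions, 5.72% of those shared by 4 muscles and 1.61% of Quad-only regions. Regions higher in Ex overlapped 5 members (0.157%), against 0.521% of all, 0.243% of those shared by 4 muscles and 0.777% of Quad-only regions. Regions lower in mTg overlapped 254 members (7.98%), against 1.54% of all, 0.999% of those shared by 4 muscles and 1.48% of Quad-only regions. For regions higher in mTg, the 62 members (1.95%) lay below the 2.71% of all and the 3.18% of those shared by 4 muscles. They lay above the 1.16% of Quad-only regions. Both decreases met at 108 members (3.4%), against 0.39% of all, so that 108 of the 201 merged regions with both were members. With regions limited to an adjusted p under 0.001 the shares were 2.86% against 1.4% for lower in Ex and 3.9% against 0.595% for lower in mTg. At 6 members (0.189%) a region lower in Ex met a region higher in mTg, near the 0.128% of all merged regions. In all, 658 members (20.7%) overlapped at least 1 of the lists, against 8.52% of all merged regions.

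Wider members overlapped more often, and the difference from all merged regions held in the 4 width bands. Regions lower in Ex overlapped 8.3% of members of 1 to 2 kb, against 2.14% of all merged regions of that width, and 23.6% against 5.41% at 2 to 4 kb. Regions lower in mTg overlapped 5.46% against 1.28%, and 11.3% against 1.92%. At promoters 3 of 94 members (3.19%) overlapped a region lower in Ex and 2 (2.13%) a region lower in mTg, against 0.993% and 0.305% of all promoter regions. Above 4 kb, regions lower in Ex overlapped 42.3% of members and 10.6% of all merged regions. All 10 members with the highest level overlapped a region lower in Ex, and 6 of them (Cdh4, Dtnb, Abcc8, Stim2, Tbc1d19 and Mss51) also a region lower in mTg. These 10 were ranked by the EDL and Quad levels that the rule used. The part of level and width in their overlap was not tested.

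Each differential list gives log2 levels of its 4 libraries quantile normalized together, so differences could be measured region by region. The authors selected these regions for differing, so the test is not independent evidence. At the regions lower in Ex that are named here, limma gave the same SE, 0.21, whatever the spread of their own replicates. Ppp1r3c, at 8.26 and 7.29 in Sed, had the SE of Kcnma1, at 5.44 in both Sed libraries. The adjusted p in that list therefore follows the size of the difference, not how far replicates separated at a region. With limma and Benjamini-Hochberg adjustment over each list, all 452 regions lower in Ex that overlapped members passed an adjusted p of 0.05, where 99.7% of that list did, and so did all 5 regions higher in Ex, where 99.7% did. All 262 regions lower in mTg and all 62 higher in mTg passed, as did 100% of the list of lower regions and 100% of the list of higher regions. In every one of these regions the treated libraries did not overlap the controls. The same held in all 2280 and 382 regions of the lists lower and higher in Ex. It also held in all 844 and 1828 regions lower and higher in mTg, so it does not set the members apart. The median log2 difference, Ex minus Sed, was -0.71 (range -1.25 to -0.45; -0.76 over the whole list). The median of mTg minus Wt was -0.69 in the lower regions (range -1.89 to -0.38; -0.63 over the list) and 0.75 in the higher ones (0.74 over the list). Without the second Ex replicate 198 of the 452 passed, and 1191 of the 2280 regions in the whole list. Without the first Sed replicate limma passed 0 of the 382 regions of the list higher in Ex, the 5 in members included, of which 4 had an unadjusted p under 0.05. Without the second Sed replicate 205 of the list and 3 of the 5 passed.

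**Figure D4:**
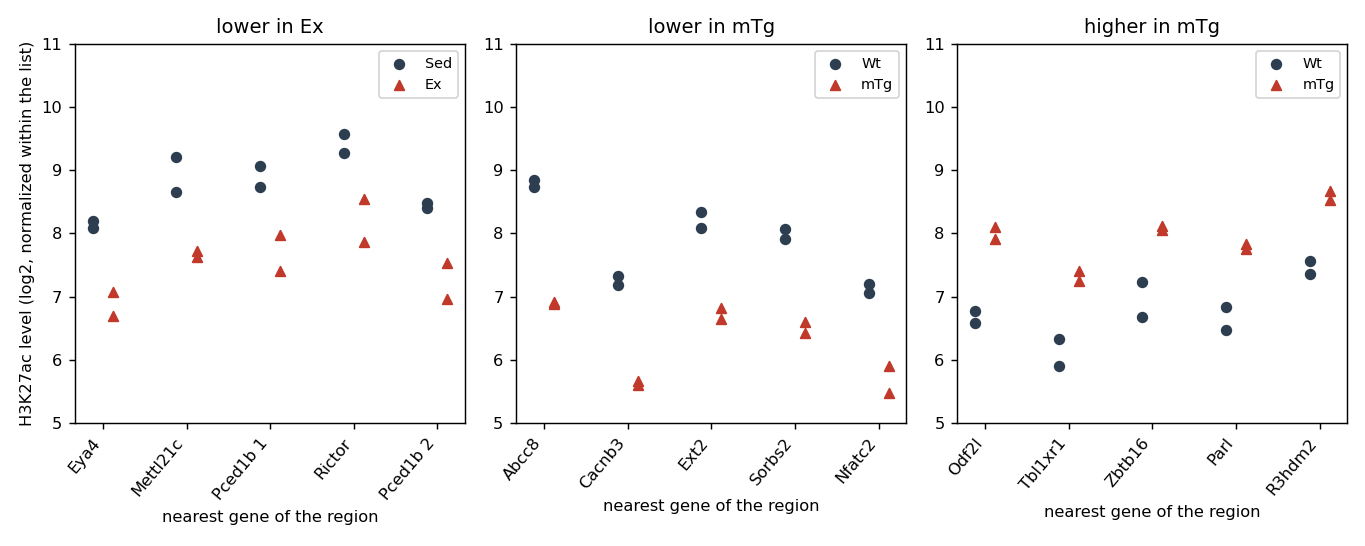
Log2 H3K27ac level (vertical axis, normalized within each list) in each of the 2 control (circles) and 2 treated (triangles) libraries at the 5 regions with the largest difference among those overlapping the EDL and Quad regions, named by nearest gene (horizontal axis), in the lists lower in Ex, lower in mTg and higher in mTg. Treated and control libraries do not overlap in any region, as in the whole of each list. The widest gap is at Abcc8, 6.92 and 6.89 in mTg against 8.74 and 8.85 in Wt.

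The largest decrease in either comparison was at Abcc8 in mTg. Its level was 6.92 and 6.89 in mTg and 8.74 and 8.85 in Wt, a log2 difference of -1.89 (SE 0.12, limma adjusted p = 3.35e-10). The mTg libraries lay far below both Wt libraries, whereas in Ex the same region was lower by a smaller amount, with 8.10 and 7.92 against 8.84 and 8.76 in Sed (-0.79, SE 0.21, limma adjusted p = 0.000557). Both decreases were measured in separate lists and their difference was not tested. Cacnb3, a subunit of voltage-gated calcium channels, followed at -1.62 (5.67 and 5.60 in mTg, 7.18 and 7.32 in Wt). Ext2, a heparan sulfate polymerase, stood at -1.48, Sorbs2, a cytoskeletal adaptor of the Z-disc, at -1.47 and Nfatc2 at -1.44.

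Of the 7 members near the listed fast sarcomere and calcium-handling genes, 1 overlapped a region lower in Ex and 1 a region lower in mTg. These counts are too few to set apart from the 14.2% and 7.98% of all members. The Pvalb region was at 6.41 and 5.97 in mTg and 7.63 and 7.51 in Wt, a difference of -1.38 (SE 0.14, limma adjusted p = 1.38e-07). A region spanning the Myh4 member and much of the gene was at 9.98 and 9.81 in Ex and 11.20 and 10.75 in Sed, a difference of -1.08 (SE 0.21, limma adjusted p = 2.20e-05), with the same doubt about myosin reads. It is far wider than the member, so the value is not that of the member alone.

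In Ex the largest decreases were at Eya4 and at Mettl21c, a lysine methyltransferase of muscle, both at -1.25. The Eya4 region was at 7.08 and 6.69 in Ex and 8.08 and 8.20 in Sed (SE 0.21, limma adjusted p = 2.14e-06). Next came 2 regions near Pced1b at -1.22 and -1.19 and one near Rictor, the scaffold of mTOR complex 2, at -1.21. Inside the Rictor region lay a region lower in mTg, at -1.31. Bpgm, the member highest in Quad, was at 8.91 and 8.85 in Ex and 9.75 and 9.60 in Sed (-0.80), and the member overlapped no region lower in mTg.

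Among the glycogen and glycolysis genes, decreases in Ex included -0.93 at Ppp1r3c, -0.91 at Slc16a3, -0.76 at Pfkm, -0.67 at Phkb and -0.56 at Phka1. Phkb and Phka1 encode subunits of phosphorylase kinase, which triggers glycogen breakdown. At Ppp1r3c the levels were 6.84 and 6.86 in Ex and 8.26 and 7.29 in Sed, without overlap. At Phkb 2 regions were also lower in mTg, by -0.98 and -0.66. The single increase in this group was at Pfkfb3, an enzyme that sets the level of fructose 2,6-bisphosphate, at 0.57 in mTg.

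The fiber-type factors went both ways. In mTg H3K27ac was higher at a Tbx15 member (8.75 and 8.32 against 7.90 and 7.59 in Wt, 0.79), a Sox6 member (7.47 and 7.68 against 6.78 and 6.70, 0.83) and a Maf member (7.45 and 7.31 against 6.30 and 6.86, 0.80). In Ex another Maf member was lower (7.80 and 7.81 against 8.78 and 8.76 in Sed, -0.96), as was another Sox6 member (-0.62). Of the 42 members near these factors, 6 overlapped a region lower in Ex, 3 one lower in mTg and 3 one higher in mTg, and the first 2 counts are near the 14.2% and 7.98% of all members. None of the 5 Nfatc1 members overlapped any list.

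The largest increases in mTg were at Odf2l (1.34), Tbl1xr1, a component of nuclear corepressor complexes (1.21), Zbtb16, the zinc finger factor PLZF (1.13), Parl, a mitochondrial rhomboid protease (1.13), and R3hdm2 (1.13). At Odf2l the mTg libraries were at 7.92 and 8.11 and the Wt libraries at 6.58 and 6.77. Of the 5 regions higher in Ex, 4 lay near Zfp438, Mir5617, Adamts2 and Pik3r1, at 0.59 to 0.72. Adamts2 processes procollagen and Pik3r1 is a regulatory subunit of PI3-kinase.

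Several neighbouring members fell together. The pattern was clearest around Sorbs2, singled out after its values were seen, where all 6 merged regions within 80262 bp (chr8:45686716-45766978) were members. Of these, 5 overlapped a region lower in Ex and 5 one lower in mTg, and all 6 carried H3K4me2 in Quad. H3K4me2 was called in Sol and Dia at the last of them alone. In mTg the differences ran from -0.78 to -1.47 and in Ex from -0.70 to -0.93. At the most affected region the levels were 6.60 and 6.43 in mTg and 7.91 and 8.07 in Wt.

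**Figure D5:**
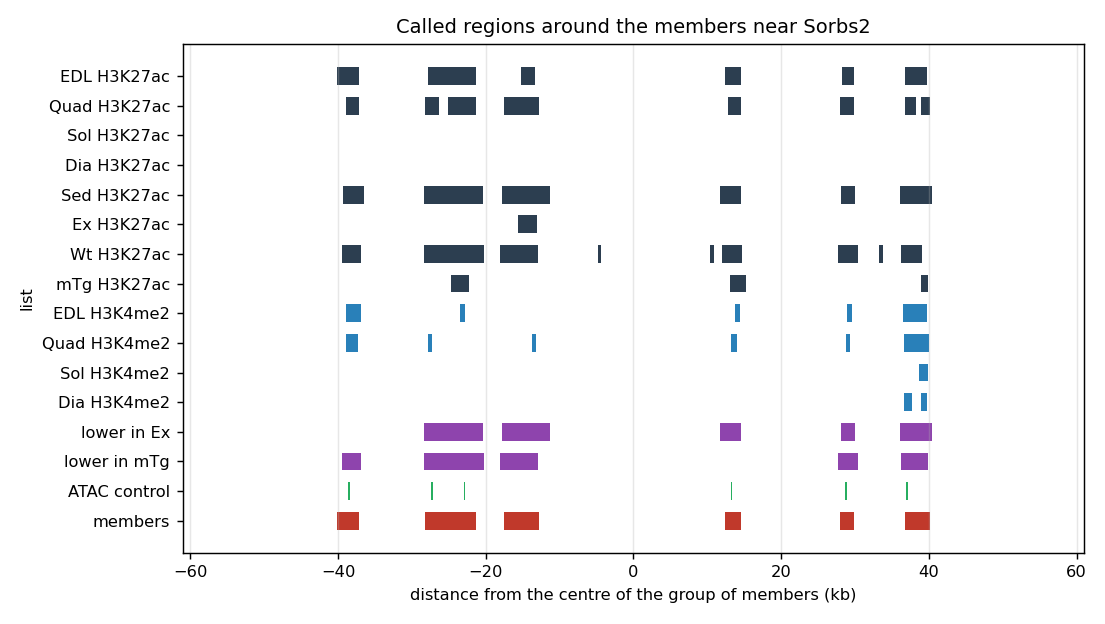
Regions called in each list (rows) around the 6 members near Sorbs2, against distance in kb from the centre of the group (horizontal axis); a bar spans a called region. H3K27ac bars of EDL, Quad, Sed and Wt line up with the members, the Sol and Dia rows hold no H3K27ac bar over a member, and 5 members each lie under regions lower in Ex and lower in mTg.

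Around Alx4 and Ext2, also chosen after the values were seen, 6 of 9 merged regions were members (chr2:93683985-93812089), with 4 lower in mTg and 2 lower in Ex. At Stim2 3 of the 9 members overlapped a region lower in mTg and 2 one lower in Ex. At Dlg1, a scaffold protein of membranes, 4 of 5 members overlapped a region lower in Ex, at -0.62 to -0.81, and none one lower in mTg. The group with the most members, 9 of 27 merged regions around Sort1 and Psma5, held 2 lower in mTg and none lower in Ex.

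Accessible chromatin in control Quad overlapped 1730 members (54.4%), about as many as of all merged regions (54.5%) and fewer than of those shared by 4 muscles (86.7%). MED1 peaks, each from 1 library, overlapped 53 members (1.67%), against 7.91% of all, and NFAT peaks of Sol overlapped 80 (2.51%), against 3.3%. No member overlapped an NFAT peak of Quad, of which 26 merged regions held one, and 0 of 3181 allows a share of up to 0.121% by the Wilson interval.

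Windows of 300 bases at the highest ATAC peak in these 1730 members were searched for short motifs on both strands, beside the same windows of 28138 merged regions. MEF3 was present in 7.05% of members' windows and 4.35% of all, NBRE in 5.26% and 2.31% and MEF2 in 3.64% and 2.68%. The nuclear receptor half-site AGGTCA, which every NBRE contains, was in 27.1% and 21.8%, and the E-box in 31.2% and 27.1%. AP-1 (TGANTCA), at 13.8% and 12.8%, TEAD (CATTCC), at 17.1% and 16.3%, NFAT, at 24.7% and 25.3%, and the ERR element, which also contains the half-site, at 0.462% and 0.519%, were near the background. The members' windows had a lower median GC content, 50.3% against 53.7%, and its part in these shares was not tested. Outside promoters MEF3 was in 7.3% against 4.62% and NBRE in 5.49% against 2.62%.

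By response, MEF2 letters were in 7.85% of the 331 windows of members lower in Ex, 3.96% of the 202 lower in mTg and 2.63% of the 1292 in neither list. MEF3 was in 11.2%, 8.42% and 6.11%, and NBRE in 9.06%, 11.9% and 3.72%. The Wilson intervals of MEF2 in members lower in Ex (5.42% to 11.3%) and in members in neither list (1.89% to 3.65%) did not overlap. For TEAD the order was the opposite, 12.1% and 14.9% against 18.3%. A match says only that the letters are in the window, not that a factor was bound.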

How the data were processed

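Groups came from the sample titles. Per the labels and methods, the authors aligned reads to mm10 with Bowtie (1.2 in the submitters' processing notes), kept 1 tag per position and called peaks over both replicates against input with HOMER and DESeq2 (2-fold, FDR 0.05). The deposited lists hold log2 tag values, taken to be regularized logs normalized within each list, adjusted p-values, a peak score and, for ATAC, a signal in tags scaled to 10000000. The authors' fold changes and p-values served only as stricter thresholds, and no list held tag counts.

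Differential lists, per the methods, were quantile normalized and built by comparing all peaks of a pair of groups. Lists were merged and overlapped (at least 1 bp) with bedtools 2.31.1. Promoters spanned 1000 bp before to 100 bp after a start site, as the authors set them. Class and nearest gene were those of the highest-scoring Quad peak in a region, or without one the EDL, Sol or Dia peak. Differential lists were fitted with limma 3.58.1 in R 4.3.3 (two-sided), a fit tested on simulated data. Named genes were up to 5 per list by level, the 10 highest members, the genes with the most members, up to 5 per differential list and the 5 widest; a few genes that this rule names are not reported here. The members, lists and motifs were chosen with earlier results of these data known. Depth, read from the headers, and 2 libraries per group limit precision. ATAC lists of Ex and mTg muscle and footprints are in another build than mm10 and were not used here. Other peak thresholds, overlaps, widths and left-out replicates were tried.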

Additional observations from a re-analysis of the deposited data

How the results depend on the processing

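Of 116 alternatives, 72 left a value within its interval or within 1.5 times, 41 moved it and 3 lost calls. H3K4me2 shares in EDL, Quad, Sol and Dia became 48.4%, 44.2%, 18.7% and 15.5% for peaks of at least 4-fold (all merged regions 52.4%, 49%, 44.3% and 39.8%), and 27.7%, 30.1%, 11.7% and 10.6% at an adjusted p under 0.001 (41.2%, 40.6%, 34.5% and 32.5%). EDL and Quad were above Sol and Dia in both, and EDL and Quad then lay further below all merged regions. H3K27ac calls in Sed, Ex, Wt and mTg became 23.7%, 7.36%, 25.6% and 8.74% at 0.001 (all 36.7%, 33.4%, 34.1% and 26.8%), so that Sed and Wt then lay below all merged regions, and 49.4% and 23% in Sed and Ex at 4-fold. Overlap at 0.001 was 2.86% for lower in Ex (all 1.4%), 0% for higher in Ex (0.00775%), 3.9% for lower in mTg (0.595%) and 1.1% for higher in mTg (1.72%). Width bands, added after the data were seen, gave 8.3% and 23.6% in Ex and 5.46% and 11.3% in mTg. Levels not divided by width put the median H3K27ac percentile at 26.3 in EDL and 37.5 in Quad and H3K4me2 at 44.9 in Sol. Without replicate 1 or 2 the Dia H3K4me2 median was 42.4 or 44.1. The 20000 strongest ATAC peaks overlapped 18.7% of members (30% of all). MEF3 was at 5.61% in 200-base windows (all 3.04%) and 5.56% at Quad peak centres (all 4.4%, a narrower gap), where NBRE was at 3.58% (all 2.01%). Leaving out a library left 198 to 448 of 452 regions lower in Ex past the threshold, 0 to 5 of the 5 higher in Ex, 257 to 262 lower in mTg and 59 to 62 higher in mTg. Fewer libraries in the fit lower these counts, and the cause of the drop to 198 without the second Ex replicate was not tested. Labels share replicate numbers but not animals: same-numbered deviations correlated at 0.106, 0.144, -0.242 and -0.0386 over the 4 lists, and with the replicate block 452, 5, 262 and 62 regions passed, as without it. Crossing the numbers, added after the data were seen, gave 440, 5, 262 and 62. How depth limits weak calls in each group was not tested.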

Other observations

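In the condition libraries H3K4me2 calls did not simply follow the acetylation calls. At the main threshold members lay above all merged regions for H3K27ac in Sed and Wt, but below them for H3K4me2 in every group. From Sed to Ex the H3K27ac calls fell from 61.4% to 33.7% of members, and the H3K4me2 calls by less. H3K4me2 was called at fewer members in Ex than in Sed and in mTg than in Wt. It overlapped 36.3% of the EDL and Quad regions in Sed and 30% in Ex, against 47.9% and 45.1% of all merged regions, and 44.1% in Wt and 22.6% in mTg, against 55.7% and 36.8%. The mTg H3K4me2 libraries included the shallowest one, at 6.41 M tags, and its part in the lower mTg share was not tested. MED1 peaks of EDL, Quad, Sol and Dia overlapped 6, 22, 24 and 7 of the regions, with 1 library per muscle. These are 0.189%, 0.692%, 0.754% and 0.22% of the regions, against 0.818%, 3.27%, 3.93% and 2.87% of all merged regions.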
